A study of Mus musculus with 24 samples.

Results

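The 6 genes described here, Nppa, Nppb, Ankrd1, Acta1, Ctgf and Xirp2, are widely used as transcript markers of stress on the wall of the heart. Members were taken as every array probe annotated to one of these symbols. Of the 6 genes, 5 had a probe, with 6 probes in all, out of 16593 genes and 25697 probes on the array. Ctgf stands under its current name, Ccn2, in the annotation, Ankrd1 has 2 probes, and Xirp2 was not analysed here.

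The samples came from male C3HeB/FeJ mice aged 117 days and were read on Illumina bead arrays. The tested mice were heterozygous for a chemically induced (ENU) allele of Ednra, the type A endothelin receptor gene, named Y129F after the series title and listed in the sample labels as "Endra", and they were set against wild-type mice of the same strain. Each genotype had 4 arrays per tissue, for heart, bone and white fat, 24 in all. The hearts came from 8 mice of their own, while the other two tissues were taken from the same mice as each other. The series title speaks of homozygous mice and of velocardiofacial (DiGeorge) syndrome, but every mutant sample analysed here was heterozygous, and the labels do not say which part of the heart or which bone was taken. In bone and white adipose tissue 1 mouse number stands under both heterozygous replicate 4 and wild-type replicate 3, so one of these labels may be wrong, and results in those tissues are given without both arrays where that changes the call.

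Nppa and Nppb encode the atrial and B-type natriuretic peptides, hormones that heart muscle releases when it is stretched and that lower blood volume and pressure. Ankrd1 encodes a muscle ankyrin repeat protein that binds titin in the sarcomere and also enters the nucleus. Acta1 encodes skeletal muscle alpha-actin, the main actin of skeletal muscle, which rodent hearts express again under pressure load. Ccn2 encodes a secreted matrix protein induced by mechanical strain and by TGF-beta, made by fibroblasts, blood vessels and heart muscle.

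Nppb and Nppa lie in tandem on mouse chromosome 4 (GRCm38.p6), at chr4:147985786-147987205 and chr4:148000722-148002074 on the plus strand, with 13516 bases between them. Ankrd1 lies on the minus strand at chr19:36111965-36119844, Acta1 on the minus strand at chr8:123891758-123894775, and Ccn2 at chr10:24595442-24598683. The promoters are shown so that the neighbouring peptide genes, whose heart values are set side by side below, can be compared with the sarcomere genes. Each is the 250 bases before the start site in the RefSeq promoter table, written 5′ to 3′ on the gene's strand, and capitals mark matches to the motifs searched. Part of the Nppb window lies inside the annotated span of that gene. The table matched 4 of the 5 genes, and Ccn2 is named only.
Nppb, chr4:147985650-147985899, plus strand: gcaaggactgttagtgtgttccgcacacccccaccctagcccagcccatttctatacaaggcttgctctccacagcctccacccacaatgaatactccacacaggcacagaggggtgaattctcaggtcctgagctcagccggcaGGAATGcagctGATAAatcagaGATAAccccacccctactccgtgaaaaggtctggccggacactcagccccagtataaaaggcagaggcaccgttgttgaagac
Nppa, chr4:148000472-148000721, plus strand: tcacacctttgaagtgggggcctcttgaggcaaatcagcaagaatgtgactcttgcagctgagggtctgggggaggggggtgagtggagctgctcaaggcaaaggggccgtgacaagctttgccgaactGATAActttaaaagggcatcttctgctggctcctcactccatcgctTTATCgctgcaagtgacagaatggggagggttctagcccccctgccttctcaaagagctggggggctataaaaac
Ankrd1, chr19:36119845-36120094, minus strand: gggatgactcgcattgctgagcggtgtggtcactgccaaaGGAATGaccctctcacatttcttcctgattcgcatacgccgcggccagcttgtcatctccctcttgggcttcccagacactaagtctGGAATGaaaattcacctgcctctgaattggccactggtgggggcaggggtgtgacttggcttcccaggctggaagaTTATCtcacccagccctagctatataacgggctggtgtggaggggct
Acta1, chr8:123894776-123895025, minus strand: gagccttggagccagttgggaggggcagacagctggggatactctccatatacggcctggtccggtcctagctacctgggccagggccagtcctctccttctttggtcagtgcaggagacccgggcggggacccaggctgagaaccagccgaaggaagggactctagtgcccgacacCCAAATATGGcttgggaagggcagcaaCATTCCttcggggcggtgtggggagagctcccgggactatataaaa

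Motifs were searched on both strands. The M-CAT element, CATTCC or its complement GGAATG, is the site of TEAD factors, and GATAA or its complement TTATC is the core bound by GATA4 in heart muscle. The Nppb window holds 1 M-CAT element and 2 GATA cores, the Nppa window 2 GATA cores and no M-CAT element, and the Ankrd1 window 2 M-CAT elements and 1 GATA core. The Acta1 window holds 1 M-CAT element and 1 CArG box, the site of serum response factor. Among all 32851 promoter windows of this length in the table, 12.6% hold an M-CAT element, 22.6% a GATA core and 1.47% a CArG box, while the MEF2 site, present in 2.92%, has no match in these 4 windows. No match overlaps another, and a match describes the letters only. The absence of a match says only that those letters are not in this window.

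Levels are log2 values of background-corrected intensities normalized within a tissue, and all differences are heterozygous minus wild type. Before the heart results, 1 array needs description. The fourth wild-type heart array had 9931 detected probes, against 11467 to 12143 on the other 7, and its median correlation with the other arrays was 0.863, against 0.987 to 0.990. Among 1524 genes with a pair of probes, the difference between the probes strayed by more than 1 log2 unit on 579 there, against 2 to 32 elsewhere. On it 1224 genes lay over 2-fold below the median of the other arrays and 1053 over 2-fold above. Member results in heart are therefore given with it and without it, and those of other named genes and lists where leaving it out moved the value. Mean raw intensity was 433 to 477 on heterozygous and 368 to 421 on wild-type heart arrays, so brightness moved with genotype in heart; a fit with brightness as a covariate is given where it turned a sign. The hearts carried their defining transcripts, with Myh6, the alpha-myosin heavy chain gene, detected on 8 of 8 arrays, against 2 of 8 bone and 0 of 8 fat arrays. The osteocalcin gene Bglap was detected on 8 of 8 bone, 0 of 8 heart and 1 of 8 fat arrays. The adiponectin gene Adipoq was detected on 8 of 8 arrays of each tissue, at a mean of 14.10 in white adipose tissue, 10.80 in bone and 7.00 in heart, while Plin1, the perilipin gene of fat droplets, was detected on 8 of 8 fat, 6 of 8 bone and 0 of 8 heart arrays.

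In heart, 0 of the 5 measured stress markers passed an adjusted p of 0.05, and neither did any other of the 8535 genes tested by limma (0%). Nppb was the member with the smallest p. Its 4 heterozygous hearts all lay above its 4 wild-type hearts, at a mean 1.44 times the wild-type level. Acta1 had a mean 1.33-fold lower in heterozygous hearts, with overlapping arrays, Ccn2 had a higher mean, also with overlap, and Ankrd1 was close to the same level in both genotypes. The value of Nppa depended on the fourth wild-type array. At an unadjusted p under 0.05, Nppb and Acta1 were the 2 members of 5, Nppb among 146 higher genes (1.71%) and Acta1 among 328 lower genes (3.84%), 474 or 5.55% together. The median difference of all genes was -0.091, with 5464 of 8535 lower; without wild-type array 4 it was -0.020, with 4664 of 8424 lower.

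**Figure D1:**
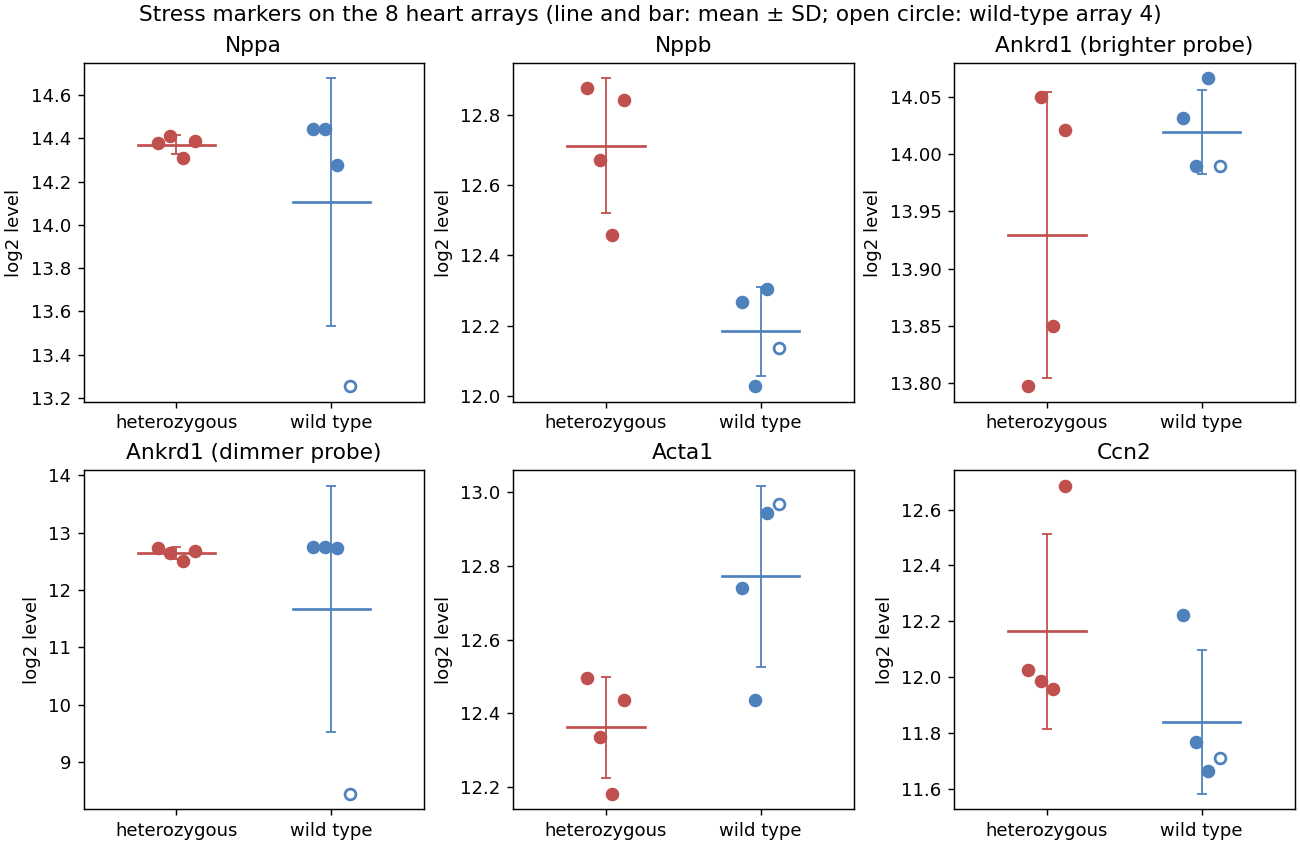
Level of each stress marker probe on the 8 heart arrays (y axis, log2 units, with its own range in each panel), heterozygous left and wild type right. Points are arrays, lines and bars are the mean ± SD of 4, and the open circle is wild-type array 4, which stands at 13.25 for Nppa and 8.45 for the dimmer Ankrd1 probe, while the Nppb groups do not overlap.

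Nppb levels in heterozygous hearts were 12.88, 12.67, 12.46 and 12.84, against 12.27, 12.03, 12.31 and 12.14 in wild-type hearts. The lowest heterozygous heart thus lay above the highest wild-type heart, a pattern that 239 genes, or 2.8%, showed in this direction. The same separation was present before normalization, with raw intensities of 5839 to 8612 in heterozygous and 4226 to 4873 in wild-type hearts. Array brightness enters these raw values, since mean raw intensity was 433 to 477 on heterozygous and 368 to 421 on wild-type arrays. The normalized Nppb difference was 0.53 (SE 0.107, 95% interval 0.28 to 0.77, adjusted p = 0.609 by limma), the fifth smallest p in heart. Without wild-type array 4 the levels were 12.86, 12.65, 12.44 and 12.82 in heterozygous hearts, against 12.26, 12.02 and 12.29 in wild-type hearts. The difference was then 0.50 (SE 0.104, interval 0.27 to 0.73, adjusted p = 0.168), with no overlap, as for 371 genes or 4.4% in this direction. In that set of 7 arrays 0 of 8424 genes (0%) passed, with 898 or 10.7% at an unadjusted p under 0.05.

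Without that array, Nppb passed under 1 alternative, scaling each array to its median (0.59, adjusted p = 0.0414), where 24 genes passed, all higher; over the 13 alternatives run there its adjusted p ranged from 0.0414 to 0.996. Across the 22 alternatives to the 8-array fit the difference of Nppb stayed between 0.46 and 0.61, with adjusted p from 0.164 to 0.755.

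Nppa, the gene next to Nppb, gave 14.38, 14.41, 14.31 and 14.39 in heterozygous hearts, against 14.44, 14.44, 14.28 and 13.25 in wild-type hearts. The first 3 wild-type hearts thus overlapped the heterozygous hearts, and the fourth was far below all of them. With that array the difference was 0.27 (SE 0.24, interval -0.28 to 0.81, adjusted p = 0.617), and without it -0.017 (SE 0.055, interval -0.14 to 0.10, adjusted p = 0.929). The sign therefore rests on 1 array. Raw Nppa intensity was 75.5% to 88.2% of the brightest probe on 7 heart arrays and 38.2% on wild-type array 4. With Nppa this near the top of the scale, a small difference between genotypes is hard to read.

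The atrial peptide gene is expressed mostly in atria in the adult, so atrial markers are given beside it. Of 10 listed, 8 were measured and 7 lay lower in heterozygous hearts, with a median of -0.29, or -0.37 with 8 of 8 lower without wild-type array 4. None passed the threshold, and their summed level was 24378 to 44565 in heterozygous and 31467 to 49024 in wild-type hearts, with overlap. Sarcolipin (Sln), a regulator of the calcium pump in atrial muscle, differed by -0.51 (adjusted p = 0.609), the atrial myosin light chain Myl4 by -0.21, Stard10 by -0.64 and Clec3b by -0.37. Leaving out wild-type array 4 gave -0.42, -0.21, -0.73 and -0.29 for these genes. Their part in the Nppa and Nppb values was not tested. In these tissue samples fewer cells of a type and less RNA per cell cannot be told apart.

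Ankrd1 was close to equal between genotypes on its brighter probe, at 13.80, 14.05, 13.85 and 14.02 in heterozygous hearts, against 14.03, 13.99, 14.07 and 13.99 in wild-type hearts. Heterozygous arrays 1 and 3 lay below the other 6. The difference was -0.090 (SE 0.067, interval -0.24 to 0.063, adjusted p = 0.609), and -0.10 (SE 0.068, adjusted p = 0.626) without wild-type array 4. With array brightness as a covariate the difference turned to 0.016.

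The dimmer Ankrd1 probe reported 12.74, 12.65, 12.50 and 12.68 in heterozygous hearts, against 12.75, 12.75, 12.74 and 8.45 in wild-type hearts. On wild-type array 4 the 2 probes of 1 gene thus parted, since the brighter probe stood at its usual level there. The difference on the dimmer probe was 0.97 (SE 0.897, adjusted p = 0.609 over all probes) with that array, and -0.10 (SE 0.061, adjusted p = 0.57) without it, where the brighter probe also gave -0.10.

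Acta1, the skeletal actin gene, lay at 12.50, 12.34, 12.18 and 12.44 in heterozygous hearts, against 12.74, 12.44, 12.94 and 12.97 in wild-type hearts. The groups overlapped through wild-type array 2, which stood level with heterozygous array 4 and below heterozygous array 1. The difference was -0.41 (SE 0.126, interval -0.69 to -0.12, adjusted p = 0.609), and without wild-type array 4 it was -0.34 (SE 0.113, interval -0.59 to -0.091, adjusted p = 0.35). Raw Acta1 intensities were 4826 to 6697 on heterozygous and 5488 to 8476 on wild-type arrays, with overlap. The difference was negative under each of the 22 alternatives to the 8-array fit, between -0.52 and -0.32. Skeletal muscle markers gave no shared direction in heart: of 14 listed, 6 were measured, with 3 higher and 3 lower (2 and 4 without wild-type array 4), and summed levels of 10013 to 10827 in heterozygous and 7461 to 10938 in wild-type hearts. Most of each sum was Ckm, at 12.77 to 13.39 in wild-type hearts. Wild-type array 4, with the highest Acta1, had the lowest sum. With each marker centred on its own mean, that array had the highest marker average, 0.60, against -0.21 to 0.024 on the other heart arrays. The part of these markers in the Acta1 values was not tested.

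Ccn2 gave 12.03, 11.99, 11.96 and 12.69 in heterozygous hearts, against 12.22, 11.77, 11.66 and 11.71 in wild-type hearts. Heterozygous array 4 stood highest, and wild-type array 1 lay above the other 3 heterozygous hearts. The difference was 0.32 (SE 0.186, interval -0.099 to 0.75, adjusted p = 0.609), or 0.28 (SE 0.179, adjusted p = 0.605) without wild-type array 4, and 0.15 without heterozygous array 4.

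**Figure D2:**
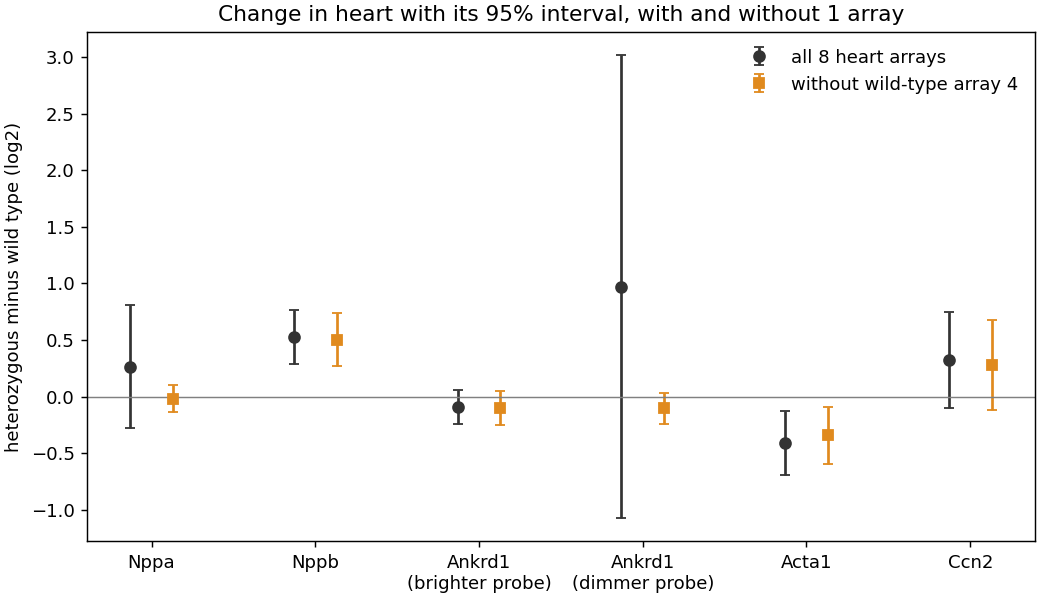
Difference of heterozygous minus wild-type hearts (y axis, log2 units) for each probe, with its 95% interval from limma, over all 8 heart arrays (circles) and without wild-type array 4 (squares). The Nppb intervals lie above 0 and the Acta1 intervals below 0 in both sets, while the dimmer Ankrd1 probe stands at 0.97 with that array and -0.10 without it.

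Genes around the members were read from lists for their pathways. No gene of these lists passed in heart, against 0% of all genes, so they are described by counts and medians, to be read beside those of all genes given above, most of which also lay lower. The genes that process, bind or degrade natriuretic peptides and their second messenger had 7 measured members, 2 higher and 5 lower, with a median of -0.24. The guanylyl cyclase receptor Npr2 was at 8.70 to 9.00 in heterozygous and 9.04 to 9.91 in wild-type hearts, a difference of -0.47 (SE 0.194, adjusted p = 0.609). The clearance receptor Npr3 differed by -0.46 (SE 0.229), the cyclic nucleotide phosphodiesterase Pde2a by -0.24 (SE 0.137) and the proprotein convertase Furin by 0.30 (SE 0.188). Without wild-type array 4 these values were -0.27, -0.37, -0.25 and 0.098, and the median was -0.25. Npr2 and Pde2a did not overlap between genotypes in either set, as for 446 genes or 5.23% in this direction over the 8 arrays. Under median scaling the median of the list was 0.022, where that of all genes was 0.066.

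For Ankrd1, the list of titin and costamere genes had 18 measured members of 21 listed, 15 higher and 3 lower. Its median was 0.13, or 0.062 without wild-type array 4. The list also holds genes that are not parts of these structures, such as Rcan1 and Fbxo32. Rcan1, an inhibitor and transcriptional target of calcineurin, lay at 11.34 to 11.59 in heterozygous and 11.05 to 11.33 in wild-type hearts, and differed by 0.27 (SE 0.087, adjusted p = 0.609), or 0.33 without wild-type array 4 (adjusted p = 0.181). Its groups did not overlap in either set, as for 239 genes or 2.8% in this direction with that array and 371 or 4.4% without it. Desmin (Des), the muscle intermediate filament, differed by -0.11, the ubiquitin ligase gene Fbxo32 by 0.41 and Ldb3, a protein of the Z disc, by 0.42. The values were -0.098, 0.17 and 0.37 without wild-type array 4. Ldb3 was dim, at 4.90 to 6.15 in heterozygous and 4.79 to 5.23 in wild-type hearts.

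For Ccn2, the list joined its own family, the genes of YAP, TAZ and TEAD factors, and their targets. It had 7 measured members of 17 listed, 4 higher and 3 lower, with a median of 0.039, or -0.15 without wild-type array 4. The receptor tyrosine kinase gene Axl differed by -0.26 (SE 0.117), Wwtr1, which encodes TAZ, by 0.70 (SE 0.418), Ccn4 by -0.23 (SE 0.259) and Amotl2 by 0.28 (SE 0.491). Leaving out wild-type array 4, Axl was at -0.17, Wwtr1 at 0.23, Ccn4 at -0.11 and Amotl2 at -0.28. Genes of the matrix linked to load had a median of 0.39 with 9 of 10 measured members higher, or 0.33 with 9 of 9 higher without wild-type array 4. The collagen cross-linking enzyme gene Lox was at 0.81 (SE 0.353), the latent TGF-beta binding gene Ltbp2 at -0.44 (SE 0.208), tenascin C (Tnc) at 0.37 (SE 0.21) and Col1a1 at 0.87 (SE 0.498). Col1a1 read 7.42 on wild-type array 4, against 9.19 to 9.44 on the other wild-type hearts, and without that array it differed by 0.38 (SE 0.291), Lox by 0.85 and Tnc by 0.38. Ltbp2 was not kept by the detection filter in that set. The summed level of the matrix genes was 2103, 1906, 1820 and 4764 in heterozygous hearts, against 1914, 1841, 1670 and 1419 in wild-type hearts. Heterozygous array 4, the array with the highest Ccn2, was thus also the highest in matrix genes, and without it the list median was 0.053.

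Serum response factor and fetal program genes, the group to which Acta1 belongs, had 12 measured members of 16 listed, 4 higher and 8 lower, with a median of -0.060, or 0.077 with 8 higher without wild-type array 4. Median scaling gave 0.043. The immediate early gene Fos differed by 1.20 (SE 0.491, adjusted p = 0.609), Junb by 0.85 and Egr1 by 0.62, while cardiac actin (Actc1) differed by -0.13 (SE 0.06). Junb read 6.27 on wild-type array 4, against 8.03 to 8.26 on the other wild-type hearts. Without that array Junb differed by 0.36, Fos by 1.30, Egr1 by 0.53 and Actc1 by -0.17. Stress cytokines and acute stress genes had 8 measured members, 5 higher and 3 lower, with a median of 0.098, or 0.11 with 7 higher without wild-type array 4. Cardiotrophin 1 (Ctf1) lay at 6.93 to 7.39 in heterozygous and 7.48 to 7.95 in wild-type hearts, a difference of -0.45 (SE 0.171, adjusted p = 0.609). The Ctf1 groups did not overlap, as for 446 genes or 5.23% in this direction. Atf3 differed by 0.34, Hbegf by 0.52 and Mt2 by 0.19. Without wild-type array 4, where Hbegf read 6.10 against 7.91 to 8.19 on the other wild-type hearts, Ctf1 differed by -0.33, Atf3 by 0.44, Hbegf by 0.023 and Mt2 by 0.43.

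Summed levels of other cell types are given beside the members. Adipocyte markers had 3 of 3 measured members lower, with a median of -0.78 and summed levels of 48.4 to 78.2 in heterozygous and 74.7 to 179.5 in wild-type hearts. The leptin gene Lep differed by -0.78 and Adipoq by -0.79 (adjusted p = 0.609 each), or -0.59 and -0.61 without wild-type array 4, where the list median was -0.61. Lep was dim, at 4.41 to 4.77 in heterozygous and 5.01 to 6.05 in wild-type hearts. Mesothelial markers of the outer heart surface had 3 of 4 lower, with a median of -0.63. Upk1b differed by -1.15, Msln by -1.06, Upk3b by -0.21 and Wt1 by 0.023. Upk1b and Msln were dim in heterozygous hearts, at 5.04 to 5.77 and 5.03 to 5.64. Their levels in wild-type hearts were 6.04 to 7.44 and 5.79 to 7.11. Summed levels of the mesothelial list were 603 to 854 in heterozygous and 747 to 1355 in wild-type hearts. The mesothelial median was -0.76 without wild-type array 4, with Upk1b at -0.87, Msln at -0.84, Upk3b at -0.68 and Wt1 at 0.21. Macrophage markers had a median of 0.60, or 0.26 without wild-type array 4, with summed levels of 3033 to 5465 in heterozygous and 1572 to 2922 in wild-type hearts. Cardiomyocyte markers had a median of 0, fibroblast markers -0.0030, endothelial markers 0.12, smooth muscle markers 0.095, erythroid markers 0.14 and ventricular markers -0.15. In the 7 arrays without wild-type array 4 these medians were 0, 0.10, 0.049, -0.026, 0.37 and -0.097, so the smooth muscle and fibroblast medians turned sign. The cardiomyocyte median is the value of Myl2, which read 14.64 on every heart array after quantile normalization, in both sets. It therefore cannot show whether cardiomyocyte content differed. The part of these cell types in the member values was not tested.

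The genes with the pattern closest to Nppb over the 8 heart arrays, each centred on its own mean, were Sgk1, Tasor2 and Dnm1l, at root mean square differences of 0.095, 0.10 and 0.14 log2 units, where the median gene stood at 0.44. Without wild-type array 4 they were Nab1, Sgk1 and Fbxo30, so Sgk1 was among the closest 3 in both sets. Sgk1, the serum and glucocorticoid regulated kinase gene, itself differed by 0.60 (adjusted p = 0.609), or 0.58 without that array (adjusted p = 0.168). A gene picked for closeness to a member on these arrays has a like difference by that choice, so it is no separate evidence. Both sets share 7 arrays, so a gene found in both is not an independent result. For Acta1 the closest gene was Wbp4 in both sets (0.086 and 0.076), followed by Gsta3 and Rprd1b over 8 arrays and Cul1 and Mrgbp over 7. For Ccn2 it was Eln, the elastin gene, in both sets (0.096 and 0.095), followed by Cotl1 and Fetub over 8 arrays and Clec11a and Man2a1 over 7.

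For Nppa the closest genes over 8 arrays were Sbds, Ubqln4 and H1f2. Over 7 arrays they were Ikbip, Fem1b and Ntan1. For Ankrd1 they were Sesn1, Plec and Tspan14 over 8 arrays and Cep120, Alg5 and Pon2 over 7. As context, the smallest p-values in heart belonged to Erdr1 (1.20) and Tbc1d22b (1.20) among higher genes, and to Hamp (-1.11), the hepcidin gene, and Art5 (-0.43) among lower genes, with adjusted p = 0.609 each.

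In bone, 3 members were measured, Ankrd1, Acta1 and Ccn2, since Nppa and Nppb were not above background on any of the 8 arrays. None of them passed, and 7 of all 9460 genes did (0.074%). Ankrd1 had the lower mean in heterozygous bone on both probes, short of the threshold. On the brighter probe its levels were 7.60, 7.38, 6.94 and 6.96 in heterozygous bone, against 8.07, 8.28, 7.56 and 7.94 in wild-type bone. The groups overlapped only through heterozygous array 1, which lay just above wild-type array 3. The difference was -0.74 (SE 0.176, interval -1.12 to -0.36, adjusted p = 0.0727), a 1.67-fold lower level.

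On the dimmer Ankrd1 probe, levels were 6.00, 5.67, 5.56 and 5.26 in heterozygous bone, against 6.31, 6.71, 6.54 and 6.43 in wild-type bone. The groups did not overlap, as for 526 genes or 5.56% in this direction, and the difference was -0.88 (SE 0.161, adjusted p = 0.0581 over all probes). Wild-type array 3 and heterozygous array 4 share the mouse number. Without both, the difference was -0.79 on the brighter and -0.75 on the dimmer probe and passed (adjusted p = 0.0183 and 0.0158), along with 737 of 9286 genes. At an adjusted p under 0.10 in all 8 arrays Ankrd1 stands with 337 genes (3.56%). Without wild-type array 3 alone the difference was -0.88 and -0.86 (adjusted p = 0.0105 and 0.0102), with 805 genes past the threshold. Without heterozygous array 4 alone, the other array of the shared number, no gene passed in bone.

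**Figure D3:**
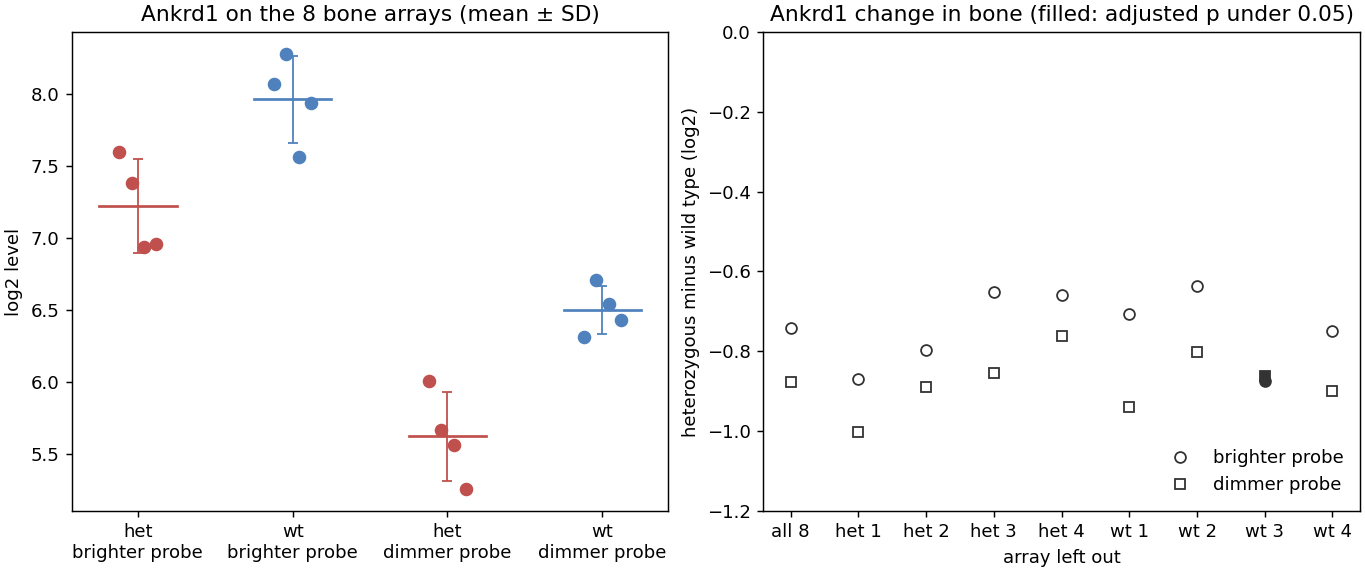
Left, Ankrd1 level on the 8 bone arrays (y axis, log2 units) for its 2 probes, heterozygous left of wild type, with the mean ± SD of 4 arrays. Right, the difference of heterozygous minus wild type (y axis, log2 units) with all 8 arrays and with each array left out (x axis), where filled marks have an adjusted p under 0.05. All values lie below 0, and without wild-type array 3 both probes pass.

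Skeletal muscle transcripts were abundant in the bone samples. Of 14 skeletal muscle markers, 13 were measured in bone, 5 higher and 8 lower, with a median of -0.0050 and summed levels of 145627 to 170220 in heterozygous and 150488 to 174240 in wild-type bone. Acta1 differed by -0.091 (SE 0.066, adjusted p = 0.488), at 14.65, 14.45, 14.59 and 14.68 in heterozygous bone, against 14.75, 14.67, 14.64 and 14.69 in wild-type bone. Skeletal muscle sums thus overlapped between genotypes in bone, and the part of muscle in the Ankrd1 values was not tested. The cardiomyocyte list had 4 measured members there, Actn2, Myl2, Myl3 and Actc1, all 4 lower, with a median of -0.20. Myh6 was detected on only 2 of 8 bone arrays, so the list is not read as heart muscle cells there. Its sums overlapped, at 14500, 12200, 9740 and 11300 in heterozygous and 19400, 18500, 9270 and 12200 in wild-type bone. In both genotypes arrays 1 and 2 had the highest sums and the highest brighter-probe Ankrd1 levels, and array 3 the lowest of each. On the dimmer Ankrd1 probe the lowest arrays were wild-type array 1 and heterozygous array 4. Macrophage markers had 6 of 7 measured members higher in bone, with a median of 0.42 and sums of 27267 to 30226 in heterozygous and 15345 to 26685 in wild-type bone, without overlap. In white adipose tissue they had 7 of 7 lower, with a median of -0.56 and sums of 13555 to 18008 in heterozygous and 19565 to 36333 in wild-type fat. Their part in the Ankrd1 values was not tested. The titin and costamere list had 19 measured members in bone, 6 higher and 13 lower, with a median of -0.11, where all genes had -0.027. Ccn2 differed by 0.064 (SE 0.12, adjusted p = 0.821), with 12.39, 12.42, 12.42 and 12.31 in heterozygous bone, against 11.90, 12.54, 12.29 and 12.56 in wild-type bone, and turned to -0.078 without wild-type array 1.

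In white adipose tissue 0 of 3 measured members passed, and 1 of 9292 genes did (0.0108%). Ankrd1 was dim there and detected on 3 of 4 arrays of each genotype, at 5.36, 5.63, 5.64 and 5.83 in heterozygous fat, against 5.36, 5.32, 5.41 and 5.55 in wild-type fat. The difference was 0.20 (SE 0.141, adjusted p = 0.355). Acta1 was at 10.73, 12.10, 10.92 and 11.52 in heterozygous fat, against 10.83, 11.14, 11.51 and 10.89 in wild-type fat, a difference of 0.23 (SE 0.273, adjusted p = 0.592).

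The highest Acta1 in white adipose tissue was on heterozygous array 2, the array whose skeletal muscle markers summed to 7870, against 189, 653 and 320 on the other heterozygous arrays and 201 to 405 on wild-type arrays. Without it the Acta1 difference was -0.034. Ccn2 was at 11.64, 11.14, 10.81 and 11.01 in heterozygous fat, against 11.27, 11.15, 11.22 and 11.65 in wild-type fat, a difference of -0.17 (SE 0.168, adjusted p = 0.503).

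To compare tissues, the 24 arrays were normalized together and the mouse was a random block. Both natriuretic peptide genes were measured in heart alone among the 3 tissues. Nppa averaged 14.66 ± 0.045 in heterozygous and 14.37 ± 0.61 in wild-type hearts (SD, n = 4 each), and Nppb 13.03 ± 0.17 and 12.58 ± 0.11. In bone and white adipose tissue neither was well above background on any array, which gives only bounds, computed against the lowest signal among detected probes. Nppa was at least 808-fold higher in heart than in bone in heterozygous mice and at least 649-fold in wild-type mice. Against white adipose tissue it was at least 751-fold and 642-fold higher. The bounds themselves were not tested. The limma test took the undetected bone values as they stood, and gave Nppa differences of 10.13 and 9.77 (adjusted p = 1.45e-21 and 3.11e-21). Nppb was at least 262-fold and 188-fold higher in heart than in bone, and at least 244-fold and 186-fold higher than in white adipose tissue. The same limma test gave Nppb differences of 8.61 and 8.10 between heart and bone (adjusted p = 3.22e-25 and 1.18e-24). Of 10557 genes, 73.1% differed between heart and bone in heterozygous and 74.5% in wild-type mice. The shares were 63.6% and 70.3% for heart against white adipose tissue and 67.6% and 68% for bone against white adipose tissue.

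Ankrd1 was measured in all 3 tissues, in the order heart, bone, white adipose tissue. Its levels averaged 14.16 ± 0.15 in heterozygous and 14.27 ± 0.049 in wild-type hearts, against 7.14 ± 0.33 and 7.89 ± 0.30 in bone. In white adipose tissue they were 5.24 ± 0.15 and 5.08 ± 0.079. Heart stood 7.02 log2 units above bone in heterozygous and 6.39 in wild-type mice, or 130-fold and 83.6-fold (adjusted p = 1.04e-20 and 4.99e-20). Bone stood 1.90 and 2.80 above white adipose tissue (adjusted p = 6.17e-11 and 5.76e-14).

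Acta1 followed another order, highest in the bone samples. It averaged 12.73 ± 0.11 in heterozygous and 13.08 ± 0.22 in wild-type hearts, against 14.46 ± 0.086 and 14.54 ± 0.041 in bone. In white adipose tissue it averaged 10.92 ± 0.64 and 10.69 ± 0.31. Heart minus bone was -1.73 in heterozygous mice (adjusted p = 7.01e-08) and -1.45 in wild-type mice (adjusted p = 9.5e-07), and heart minus white adipose tissue was 1.81 and 2.40. The bone samples also held the skeletal muscle myosin light chain Mylpf on 8 of 8 arrays at a mean of 14.41, against 5.99 in heart. The part of muscle in the bone level of Acta1 was not tested.

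Ccn2 was high in heart and bone alike. It averaged 12.56 ± 0.31 in heterozygous and 12.27 ± 0.23 in wild-type hearts, against 12.39 ± 0.051 and 12.33 ± 0.31 in bone. In white adipose tissue it averaged 10.74 ± 0.35 and 10.92 ± 0.22. Heart and bone did not differ past the threshold, at 0.16 (interval -0.20 to 0.52, adjusted p = 0.41) in heterozygous and -0.057 (interval -0.42 to 0.30, adjusted p = 0.78) in wild-type mice. Both exceeded white adipose tissue, heart by 1.81 in heterozygous and 1.35 in wild-type mice and bone by 1.65 and 1.41.

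**Figure D4:**
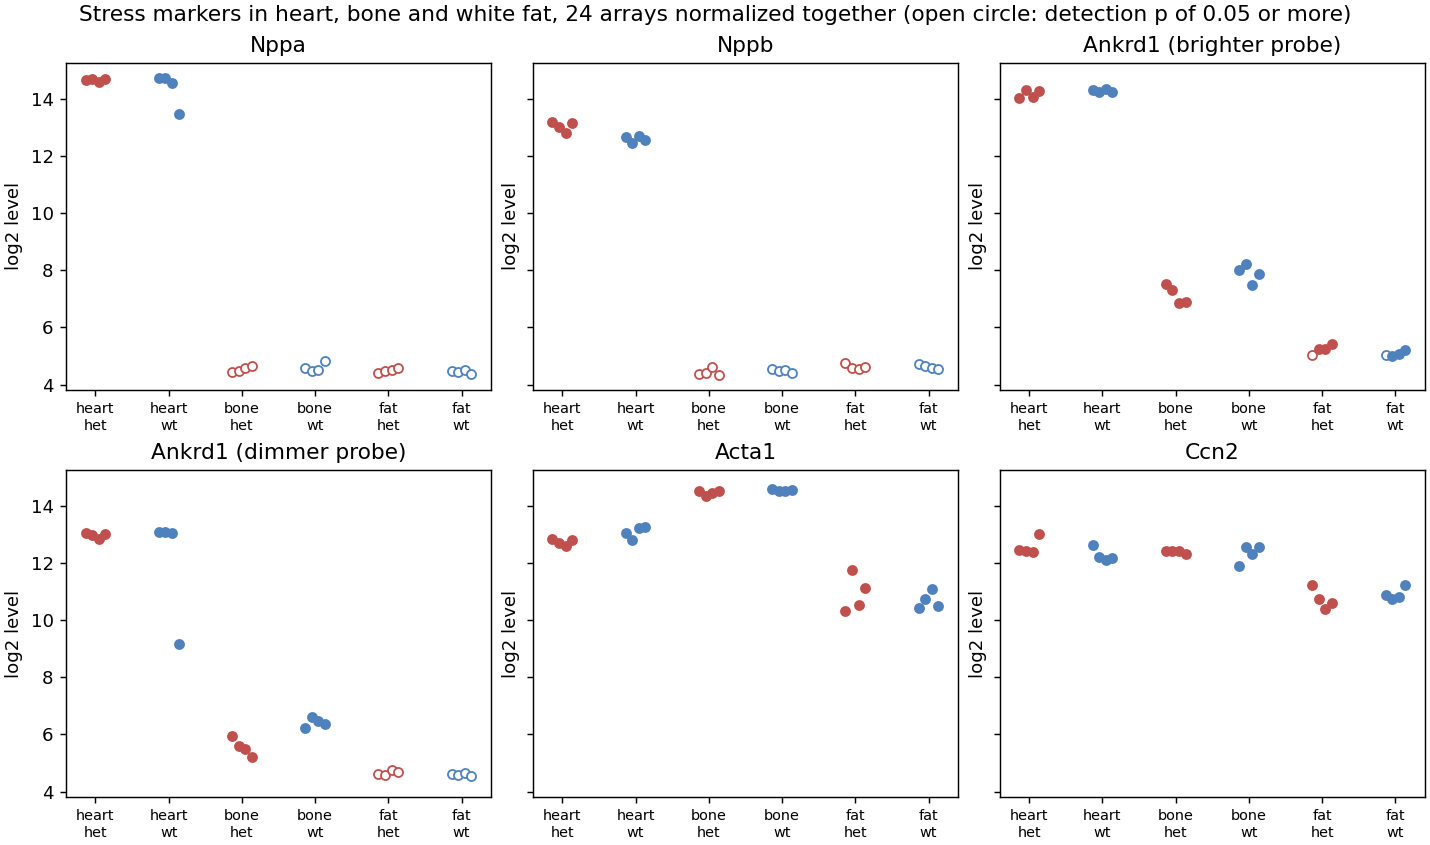
Level of each probe on 24 arrays normalized together (y axis, log2 units) by tissue, heterozygous (het) left of wild type (wt). Points are arrays, open where the detection p is 0.05 or more. Nppa and Nppb are open on every bone and fat array, Acta1 is highest in bone, and Ccn2 is at a like level in heart and bone.

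Genes that process or receive the natriuretic peptides were spread over the tissues. Corin, the protease that cleaves the Nppa precursor, was at 11.81 ± 0.17 in heterozygous and 11.68 ± 0.14 in wild-type hearts, against 5.70 ± 0.30 and 5.38 ± 0.21 in bone. White adipose tissue gave 7.35 ± 0.38 in heterozygous and 6.40 ± 1.26 in wild-type mice. The clearance receptor Npr3 was at 12.52 ± 0.25 in heterozygous and 12.90 ± 0.11 in wild-type fat, against 8.55 ± 0.33 and 8.96 ± 0.28 in heart and 5.51 ± 0.21 and 5.66 ± 0.25 in bone. Each of these levels is set against the same probe only.

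The genotype difference of Ankrd1 itself differed between bone and white adipose tissue. Bone minus white adipose tissue was -0.91 (SE 0.203, interval -1.33 to -0.48, adjusted p = 0.0236), past the threshold along with 295 of 8489 genes, or 3.48%. In white adipose tissue, however, Ankrd1 was near background, at 5.24 in heterozygous and 5.08 in wild-type mice, where a difference is hard to read. Its dimmer probe was not detected on any fat array, so this contrast rests on 1 probe. Heart minus bone was 0.64 (SE 0.204, adjusted p = 0.285), where 2 of 7900 genes passed (0.0253%), and heart minus white adipose tissue was -0.27 (adjusted p = 0.377), where 456 of 7899 genes passed (5.77%). For Acta1 and Ccn2, 0 of 6 such differences passed, with adjusted p from 0.178 to 0.702.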

How the data were processed

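Per the labels' protocols, RNA isolated with Trizol and cleaned on RNeasy columns was made into biotin-labelled cRNA (MessageAmp), and per the submitters' processing notes images were read in GenomeStudio 2011.1. The authors deposited raw intensities in one set of values and background-subtracted, normalized intensities in another (lowest value -22.0), which was read from the values. Detection p-values, one per probe on every array, were deposited too. The normalization method is not given in the sources used. The plan had assumed the opposite contents of the 2 sets.

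In limma 3.58.1 (R 4.3.3), raw intensities received a normexp correction using the detection p-values and an offset of 16, then quantile normalization of the arrays of one tissue, then log2. A probe was kept when its detection p was under 0.05 on at least 4 arrays, and the probe with the highest mean stood for a gene. Of 25697 probes 23978 carry 1 symbol and 1719 none. Genotypes were compared by limma's moderated test with a variance trend, adjusted by Benjamini and Hochberg's method. Tissues were compared over all 24 arrays with the mouse as a block (consensus correlation 0.0115, statmod 1.5.0). The steps were tested on simulated data. Precision is limited by 4 arrays per group.

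Members and lists were chosen with earlier results of these data known. Named are all member probes, of each list up to 4 genes with the smallest p in heart, the 3 genes nearest each member, and the 2 smallest p-values per direction. Corin and the tissue markers Myh6, Bglap and Mylpf were named outside this rule after their values were seen. Alternatives were other background corrections, normalizations, filters, models and each array left out. Leaving out both arrays of the shared mouse number within a tissue, and the counts and medians of all genes under the settings, were added after seeing the data.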

Additional observations from a re-analysis of the deposited data

Results flagged for a closer look

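Of 24 groups of 4 detected arrays tested for a single distant array by Dixon's test, 3 held one, where chance gives about 1 in 20. In heart, wild-type array 4 was the distant low array for Nppa, at 13.2533, and for the dimmer Ankrd1 probe, at 8.4538. Heterozygous heart array 4 was the distant high array for Ccn2, at 12.6859. The genotype difference of Ankrd1 in bone minus that in white adipose tissue was -0.9065 and passed the test of the difference itself, with Ankrd1 near background in white adipose tissue.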

How the results depend on the processing

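In heart no stress marker passed under any of the 22 alternatives to the 8-array fit. The heart count was 0 under each of them except the set without heterozygous replicate 2, where it was 1, so leave-one-out counts ran from 0 to 1, and those of stress markers and of listed pathway genes stayed at 0. The lists were run under 11 alternatives. In heart Nppb kept a positive and Acta1 a negative difference under all of these.

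Reversed differences in heart were Nppa under array weights (-0.031) and without wild-type array 4 (-0.017), the dimmer Ankrd1 probe under array weights (-0.092) and without that array (-0.10), and the brighter Ankrd1 probe with brightness as a covariate (0.016, or 0.028 without wild-type array 4). Elsewhere Ccn2 in bone turned to -0.078 without wild-type array 1, Acta1 in white adipose tissue to -0.034 without heterozygous array 2, and Ccn2 in wild-type heart minus bone to 0.069 under median scaling. Leave-one-out values ran from -0.017 to 0.38 for Nppa in heart, -0.10 to 1.33 for the dimmer Ankrd1 probe in heart, -0.078 to 0.14 for Ccn2 in bone and -0.034 to 0.42 for Acta1 in white adipose tissue. The cause was not tested. The median of all genes in heart was -0.091, 0.0098 under cyclic loess and 0.066 under median scaling.

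Without wild-type array 4, median scaling gave 24 genes in heart and 1 stress marker (Nppb), and the replicate block 1 gene. In bone 1 stress marker, Ankrd1, passed under array weights, at adjusted p under 0.10, without both arrays of the shared mouse number and without wild-type replicate 3, so leave-one-out counts of stress markers ran from 0 to 1; its dimmer probe also passed with no background correction (-0.32, adjusted p = 0.0431). The bone count of 7 became 14 with no background correction, 12 at an offset of 50, 3 with no filter, 2 with all probes, 0 under median scaling, with no variance trend and with brightness, 542 with array weights, 337 at adjusted p under 0.10 and 737 without the shared number, with leave-one-out counts from 0 to 805 (805 without wild-type replicate 3, 3 without wild-type replicate 4, 0 without each other array). The fat count of 1 became 8 with 24 arrays together, 162 at detection p under 0.01 on all arrays, 0 under median scaling, with no trend, with brightness and without the shared number, 1654 with array weights and 1462 at 0.10, with leave-one-out counts from 0 to 1153 (854 without wild-type replicate 3, 1153 without wild-type replicate 4, 1 without wild-type replicate 2, 0 without each other array). In white adipose tissue 0 stress markers passed under any of them.

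Replicate numbers were checked for pairing, and same-numbered arrays correlated over 0.1 in 1 of 4 pairs in heart, 0 of 4 in bone and 3 of 4 in fat. No tissue had all 4 pairs over 0.1, so the numbers were not taken as pairs, although in fat 3 of 4 heterozygous arrays were closest to the wild-type array of their own number, a hint from the data and not from the design. With the replicate block, 0 genes passed in heart, 2 in bone and 1302 in fat (1 without the block), and 0 stress markers in each. In the tissue fits 24 of 26 level differences and 1 of 9 differences of genotype effects passed under each of the 7 alternatives run.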
